A study of Mus musculus with 8 samples.

Results

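Circular RNAs (circRNAs) of 33 genes of the intercalated disc and the costamere were examined: the genes were listed by name, and every circle that the table assigns to one of them was taken. Of the 33 listed genes, 30 had at least 1 circle, and Sgcb, Gja1 and Perp had none in the table. Together they held 370 of 27391 circles and 3208 of 254236 back-spliced reads (reads over the junction that closes a circle), or 1.26%. The hearts came from male wild-type (WT) mice, 4 with sham surgery and 4 with transverse aortic constriction (TAC), a banding of the aortic arch that loads the left ventricle with pressure. All were taken 8 weeks after surgery. Each mouse gave 1 library of heart tissue, and the comparison asks how the circles of these genes differ under lasting pressure overload. Levels are normalised reads, the reads divided by 1 size factor per library, and are not scaled by circle length.

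The intercalated disc joins cardiomyocytes end to end. Desmosomes anchor the intermediate filaments there, adherens junctions built on N-cadherin and catenins anchor the actin of the last sarcomere, and gap junctions couple the cells electrically. The costamere is the lateral counterpart: the dystrophin-glycoprotein complex and the integrins hold the Z-discs to laminin outside the cell through talin, vinculin and the integrin-linked kinase complex. An exonic circRNA forms by back-splicing, the joining of an exon's end to the start of an exon upstream or of that exon itself, so such a circle carries exons of its host but neither the first start nor the last end of the transcript. Of the 370 circles 21 were labelled intronic, to which this definition does not apply. Reads over their junctions are counted here with the back-spliced reads.

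The closing junction is what tells each circle from the linear messenger RNA, and the junctions of 10 circles on which the results turn are shown 5′ to 3′ as letters of the GENCODE M21 transcripts. The 15 bases in lower case are the end of the last exon, and the 15 capitals are the start of the first exon that follows them in the circle. All 10 circles lie entirely in coding exons. Positions are given in mm10 as the table has them, counted from 1, with the strand.
Utrn exons 60-64, chr10:12436281-12455564, minus strand, 725 nt: gaatactgcataccgTGGATCTCTTAGAGC
Utrn exons 60-63, chr10:12439627-12455564, minus strand, 613 nt: gattgttgggttcagTGGATCTCTTAGAGC
Sorbs2 exons 7-12, chr8:45759053-45775703, plus strand, 714 nt: cagcacgaaagacccAGCCAGATCACTATC
Sorbs2 exons 14-21, chr8:45789976-45805853, plus strand, 2400 nt: ctaagctccaataagGTCTCCATCTATCAG
Dmd exons 45-47, chrX:84271952-84312626, plus strand, 468 nt: ctccagtggataaagGAACTCCAGGATGGC
Dmd exons 46-47, chrX:84309799-84312626, plus strand, 292 nt: ctccagtggataaagGATTGAAGAACAAAA
Pkp2 exons 2-4, chr16:16225301-16230776, plus strand, 821 nt: gaagcacggaaaaggGGAACCTTCACCGAA
Parva exons 2-4, chr7:112544177-112547613, plus strand, 264 nt: tacagaagctcttcgTATCCGAGTTCCAGG
Itga9 exons 2-4, chr9:118626448-118636626, plus strand, 359 nt: ttccctgctacgaagGGTCCTCGTGGGTGC
Lama2 exons 33-34, chr10:27133967-27139005, minus strand, 242 nt: gagctgctaaccagaTTTGTGGAGACGAGT
The Utrn pair is shown because both circles open with the same exon 60 and differ in the exon that closes them, and the Dmd pair because both close with exon 47 and differ in the exon that opens them. The 2 Sorbs2 circles were the only circles of these genes called by the count test on all 8 libraries. The Parva and Itga9 circles were those whose sham and TAC libraries did not overlap, and the Lama2 circle was read in sham hearts only.

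Depth differed widely between the libraries and bears on every value. Library totals ran from 1119 to 100142 reads, and the libraries under 5000 reads were sham replicate 2 (3963) and TAC replicate 2 (1119). In TAC replicate 2, 1 read weighed 5.77 normalised reads, 366 of the 370 circles were at 0, and a count of 0 there allows a level of up to 17.3 (3 reads, counting error only). The same floor was 13.6 in sham replicate 2 and 0.584 to 3.09 in the other 6 libraries. More reads did not mean more circles. Sham replicate 4 had the most reads, 100142, but only 5600 circles. Sham replicate 1 had 9081 circles from 40796 reads, and TAC replicate 4 had 11550 from 36120 reads.

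Reads of these genes made up 1.17, 0.984, 0.961 and 0.995% of the library in sham replicates 1 to 4. They made up 1.60, 0.447, 1.68 and 1.75% in TAC replicates 1 to 4. The 3 deeper TAC libraries thus stood above all 4 sham libraries, and TAC replicate 2 stood below them with 5 of 1119 reads (95% Wilson interval 0.191 to 1.04%). Without the 2 circles with the most reads the shares were 0.676 to 0.851% in sham and 1.06, 0.447, 1.11 and 1.18% in TAC, in the same order. In the same 3 TAC libraries the circles of 8 cardiomyocyte marker genes summed to 1131 to 1688 normalised reads, against at most 809 in sham, and those of 5 fibroblast marker genes to 0.636 to 1.49, on 1 or 2 reads each, against 1.66 to 4.54 in sham. Those of 8 endothelial marker genes summed to 32.0 to 51.5 in these TAC libraries, against 11.8 to 40.9 in sham. The part of cell composition in the shares was not tested. Since PCR copies are not independent molecules, these intervals and floors cover counting error only. In bulk tissue, fewer cells of a type and less RNA per cell cannot be told apart.

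Output was concentrated in a few long genes. Dmd (dystrophin, which ties actin to the membrane complex) had 70 circles, Utrn (utrophin, its autosomal relative) 52, Sorbs2 (a sorbin and SH3 domain adaptor of Z-discs and intercalated discs, also called ArgBP2) 52, and Lama2 (the alpha-2 chain of muscle laminin) 46. These 4 hosts held 59.5% of the circles and 69.1% of the reads, and Dmd, Utrn and Sorbs2 were 3 of the 6 hosts in the whole table with at least 50 circles. Sorbs2 reached 50 only with its 15 intronic circles, 14 of which shared 1 start, and had 37 exonic circles. The median was 5.5 circles per listed host against 2 over all 6492 hosts. At the other end, 11 hosts had only 28 reads between them, and none had more than 7: Sgcd, Lims1, Tln1, Dsg2, Fermt2, Ctnnb1, Itga7, Zyx, Ilk, Dsc2 and Dsp. Desmoplakin (Dsp), the plaque protein that binds desmin filaments, and desmocollin 2 (Dsc2), a desmosomal cadherin, had 1 read each, both from an intronic circle in TAC replicate 1.

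Single observations were common: 206 circles (55.7%) were seen in 1 library only, against 61.7% of all circles, and 166 rested on a single read. No circle was seen in all 8 libraries and 8 were seen in 7. Of the 370 circles, 349 were exonic and 21 intronic. The exonic ones had a median spliced length of 633 nt and 4 exons, against 503 nt and 4 exons for all 25987 circles with a length. They opened with exon 2 in 8.88% of cases against 23.0% in the table, 93.98% were entirely coding against 88.3%, and their length was a multiple of 3 in 38.1% against 38.0%. These are shares of circles, of which many rest on 1 read in both sets (44.9 and 46.5%).

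The big hosts made their circles in different ways. In Utrn, 6 circles opened with exon 60, and they held 680 reads, 79.3% of the host. Its other circles had at most 36 reads each, and all 52 together covered 70 of the 74 exons. Sorbs2 had a similar hub by exon number: 9 circles opened with an exon numbered 7 and held 410 reads, 75.8% of its exonic reads. These numbers follow each circle's own isoform. Of the 37 exonic Sorbs2 circles 30 lay on the main transcript, so the 9 need not all open at the same exon. Dmd had no such hub. Its 70 circles used 34 different opening exons, the most read of which, exon 45, held 13.3% of the reads, and 75 of the 79 exons lay in at least 1 circle, all but exons 1, 61, 62 and 79. Lama2 was spread likewise, with 51 of 65 exons in a circle and none from exon 57 on. Smaller hosts varied as well, again by exon number in each circle's own isoform. Most reads opened with 1 exon in Parva (exon 2, 98.1%), Cdh2 (exon 3, 94.1%), Dtna (exon 6, 89.0%), Ctnna3 (exon 8, 87.6%) and Ctnna1 (exon 2, 86.3%). The most read opening exon held 33.3% in Vcl, 41.5% in Itga9, 43.2% in Tln2 and 44.4% each in Jup and Tjp1.

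**Figure D1:**
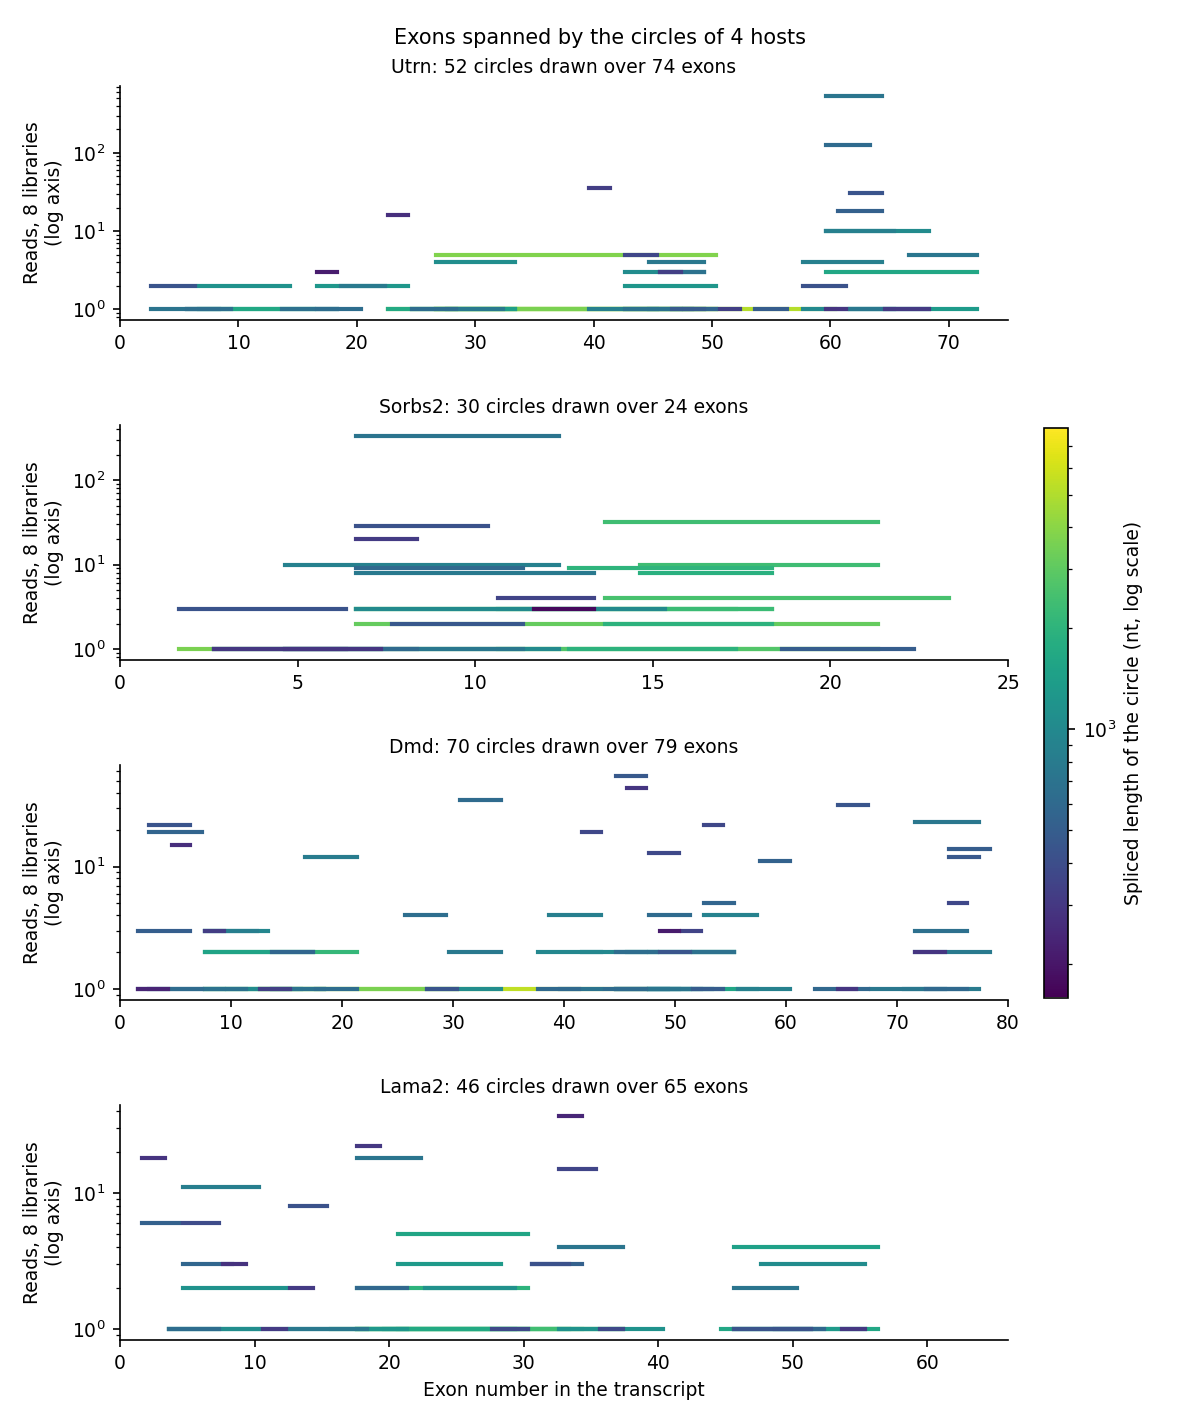
Each bar is 1 exonic circle of Utrn, Sorbs2, Dmd or Lama2, drawn over the exons it spans (horizontal axis, exon number in the host's main transcript) at the height of its reads summed over 8 libraries (log axis), and coloured by spliced length in nt. The most read Utrn bars start at exon 60 and the most read Sorbs2 bar runs from exon 7 to exon 12, while the Dmd bars with 10 or more reads are spread along the gene. For Sorbs2, 30 circles on this transcript are drawn, and circles on other isoforms and intronic circles are left out.

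Between sham and TAC, limma called none of the 58 circles it could test and none of the 19 host sums (over all features 0.0268% of circles and 0.0337% of hosts were called). limma is a linear model with moderated variances, used here on log2(normalised reads + 0.195) for features above 0 in at least 4 libraries, with Benjamini-Hochberg adjustment over the whole table and a threshold of 0.05. At an unadjusted p under 0.05 it gave 3 circles and 0 hosts, against 152 of all 3735 circles and 90 of all 2967 hosts. DESeq2 called 1 circle and 1 host, given here without a share over all features. Of the 58 circles 38 had a positive and 20 a negative fold change, with a median of 0.65 on the log2 scale against 0.15 over all 3735 circles tested. Of the 19 hosts 11 were positive and 8 negative, with a median of 0.09 against 0.13. The circles that could be tested had passed a filter on detection and were 58 of 370.

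edgeR's quasi-likelihood test on the reads recovered from the values kept 7 of the 370 circles and called 2, both higher in TAC (of all 717 circles tested 13.1% were called in either direction and 7.39% called higher). Both were circles of Sorbs2, exons 7-12 and exons 14-21. It called none of the 11 host sums it tested, against 8.24% of all hosts. At an unadjusted p under 0.05 were 3 of the 11, against 245 of all 1020 hosts. The 2 circle calls were few and were lost in several refits, described with their values below.

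TAC replicate 2 was at 0 for 15 of the 19 hosts tested by limma. The other 3 TAC libraries exceeded every sham library for 7 of the 19 hosts, namely Utrn, Sorbs2, Dmd, Pkp2, Dtna, Palld and Tjp1, where 16% of all tested hosts did so. They lay below every sham library for none of the 19, against 2.33% of all tested hosts, and no host separated the 2 groups with all 8 libraries counted, where 3.24% of all tested hosts did. Without TAC replicate 2, edgeR called 5 of 13 circles higher and 1 lower, against 11.9% and 6.99% of all circles, and 3 of 15 hosts higher (Sorbs2, Tjp1 and Pkp2), against 4.38%. limma then called 1 circle (Sorbs2 exons 7-12) and 1 host (Sorbs2) higher, against 0.868% and 0.78%. Without both libraries under 5000 reads, limma called 6 of 19 hosts higher (Sorbs2, Pkp2, Tjp1, Dmd, Palld and Dtna) against 9.82% of all hosts, and 5 of 56 circles higher against 8.13%. In the same libraries edgeR called 4 of 13 hosts higher (Sorbs2, Pkp2, Tjp1 and Dmd) against 10.9%, and 5 of 12 circles against 16.4%. The 5 circles were the same in both tests: Sorbs2 exons 7-12, Sorbs2 exons 14-21, Pkp2 exons 2-4, Dmd exons 31-34 and Dmd exons 72-77.

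**Figure D2:**
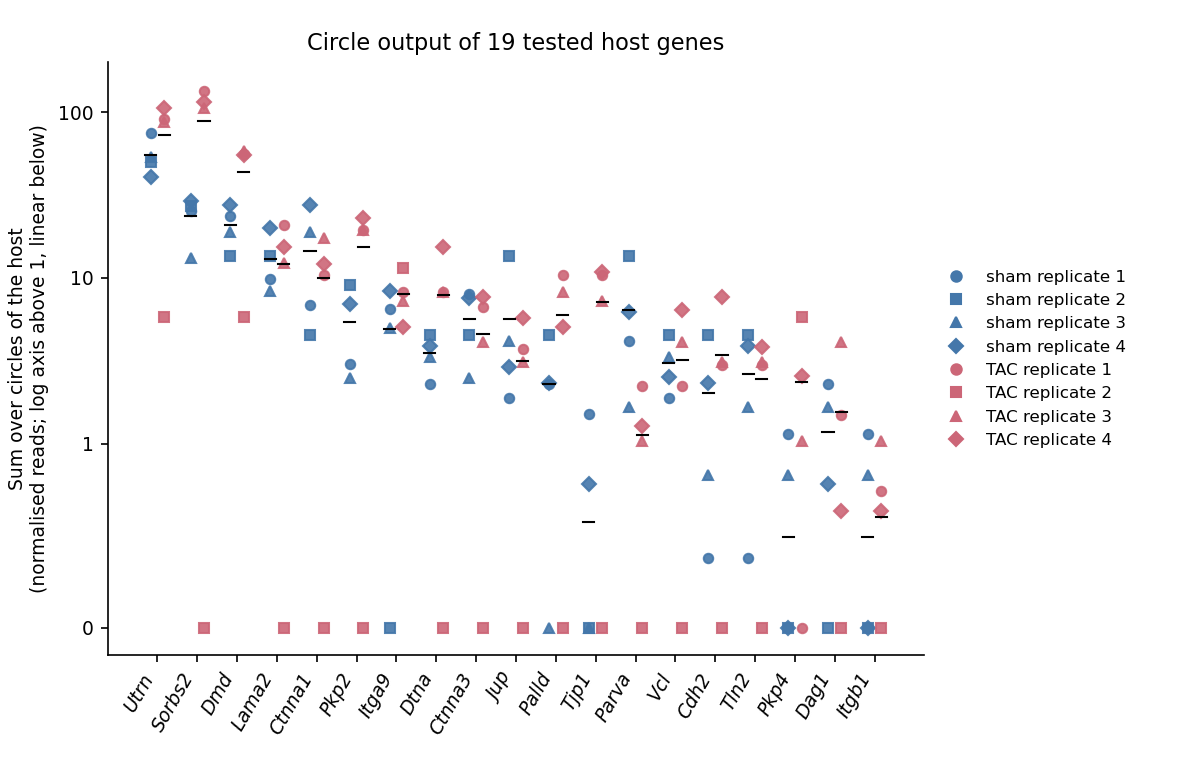
The sum of all circles of each host gene (vertical axis, normalised reads, log above 1 and linear below) is plotted for the 19 hosts tested by limma, with 1 point per library, blue for sham and red for TAC, marker shapes for replicates 1 to 4 and a black bar for each group's mean. TAC replicate 2 (red squares) lies at 0 for 15 hosts, and the other 3 TAC libraries lie above all sham libraries for Sorbs2, Dmd, Pkp2 and 4 more hosts.

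The desmosome was represented mainly by Pkp2, plakophilin 2, the plaque protein that links desmosomal cadherins to desmoplakin. Its 8 circles summed to 3.03, 9.09, 2.48 and 7.004 normalised reads in sham replicates 1 to 4 and to 19.3, 0, 19.6 and 22.9 in TAC replicates 1 to 4. All TAC libraries but replicate 2 lay above the sham range, and that one lay below it. The limma log2 fold change was 0.40 ± 1.42 (SE, adjusted p = 0.9995) and edgeR's 1.496 ± 0.62 (adjusted p = 0.115), so neither passed. The circle of exons 2-4 (821 nt) held 63.8% of the host's reads, with 1.14, 9.09, 0 and 4.67 in sham and 11.9, 0, 15.4 and 14.6 in TAC. Its edgeR log2 fold change was 1.88 ± 0.75 (adjusted p = 0.0699). Without TAC replicate 2 the adjusted p was 0.0252 and without sham replicate 2 it was 0.0276, while the length trend as an offset gave a log2 fold change of 0.65 and an adjusted p of 0.567.

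Plakoglobin (Jup), which sits in both desmosomes and adherens junctions, had 7 circles and 45 reads, with host sums of 1.90, 13.6, 4.14 and 2.92 in sham and 3.72, 0, 3.09 and 5.72 in TAC. The groups overlapped, and the highest sham value rested on 3 reads of sham replicate 2. Its leading circle, exons 7-8, held 37.8% of its reads. Plakophilin 4 (Pkp4), an armadillo protein of cell junctions, had 10 reads and desmoglein 2 (Dsg2), a desmosomal cadherin, had 3.

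In the adherens junction the largest host was Ctnna1, alpha-E-catenin, which couples the cadherin complex to actin. Its sums were 6.83, 4.54, 19.04 and 27.6 in sham and 10.4, 0, 17.5 and 12.1 in TAC, which overlapped. The circle of exons 2-3 (303 nt), with 75.2% of the host's reads, had 5.69, 4.54, 15.7 and 23.2 in sham and 3.72, 0, 8.23 and 5.72 in TAC. Its log2 fold change was −2.02 ± 1.48 by limma (adjusted p = 0.834) and −1.60 ± 0.75 by edgeR (adjusted p = 0.128).

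The mix of Ctnna1 circles stood apart between the groups, though 3 libraries a side cannot pass a test. In the 3 libraries of each group with at least 10 reads of the host, exons 2-3 made up 83.2 ± 0.602% of the reads in sham and 43.4 ± 6.64% in TAC (SD, n = 3 each). The ranges, 82.6 to 83.8% and 35.7 to 47.4%, did not overlap. An exact two-sided permutation test gave p = 0.10, the smallest that 3 against 3 can give, and 0.25 adjusted over the 5 hosts tested. A longer circle from the same opening exon, exons 2-7 (1064 nt), had 6 reads against 154 of exons 2-3 in sham, and 12 against 22 in TAC. By library its reads were 1 against 15, 0 against 1, 0 against 19 and 5 against 119 in sham, and 5 against 5, 6 against 8 and 1 against 9 in TAC replicates 1, 3 and 4, with none of either in TAC replicate 2. TAC replicate 4, where exons 2-3 held 90% of the pair, thus lay near the sham libraries (93.8 to 100%).

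Ctnna3, alpha-T-catenin, found chiefly in heart and testis, had sums of 7.96, 4.54, 2.48 and 7.59 in sham and 6.69, 0, 4.12 and 7.63 in TAC, which overlapped throughout. Its circle of exons 8-10 (327 nt), with 58.4% of its reads, had 4.93, 4.54, 1.66 and 5.84 in sham against 0.744, 0, 2.06 and 1.91 in TAC. Here 1 sham library lay within the TAC range. Cdh2, N-cadherin, the adhesion molecule of the junction, had 34 reads, 20 of them from exons 3-7. Vinculin (Vcl), which reinforces cadherin and integrin contacts under load, had 14 circles with 40 reads, and 9 of them were seen in a single library. Beta-catenin (Ctnnb1) had 2 reads.

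Tjp1 (ZO-1), a scaffold at the edge of gap junction plaques and in tight junctions, had very low sums in sham, 1.52, 0, 0 and 0.778, and 10.4, 0, 7.21 and 10.8 in TAC. The 2 sham zeros included the shallow replicate 2. The limma log2 fold change was 2.85 ± 1.58 (adjusted p = 0.9995), and edgeR's filter dropped the host. Without both shallow libraries limma gave 3.79 ± 0.89 (adjusted p = 0.0017) and edgeR 2.99 ± 0.70 (adjusted p = 0.00701). Its circle of exons 3-8 (926 nt) had 0.379, 0, 0 and 0 in sham and 2.23, 0, 2.06 and 5.72 in TAC, at a limma log2 fold change of 2.64 ± 1.32 (adjusted p = 0.834). That is 1 read in sham and 14 in TAC.

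Utrophin led the dystrophin-glycoprotein complex by the mean over all 8 libraries (63.7 normalised reads, rank 23 among all hosts). It led the whole list by that mean and in sham, while in TAC the mean of Sorbs2 was higher (88.9 against 72.5). Utrophin binds actin and dystroglycan as dystrophin does. The Utrn sums were 75.1, 49.97, 53.8 and 40.7 in sham and 90.7, 5.77, 87.5 and 106 in TAC, the second of these resting on 1 read. The log2 fold change was −0.18 ± 0.66 by limma (adjusted p = 0.9995) and 0.05 ± 0.61 by edgeR (adjusted p = 0.972). The circle of exons 60-64 (725 nt) alone had 531 reads. Its level was 47.4, 18.2, 36.4 and 24.1 in sham and 58.0, 0, 58.7 and 62.96 in TAC, with a log2 fold change of −1.05 ± 1.02 by limma (adjusted p = 0.873) and 0.27 ± 0.77 by edgeR (adjusted p = 0.860). Without TAC replicate 2 limma's value was 1.01. Its share of the host was 56.6 ± 13.9% in sham (SD, n = 4) and 63.4 ± 3.91% in TAC (n = 3), with an exact permutation p of 0.571.

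The second circle of the hub, exons 60-63 (613 nt), had 11.8, 27.3, 6.62 and 8.56 in sham and 9.67, 0, 6.18 and 10.8 in TAC, and the groups overlapped. It lacks only exon 64 of its neighbour. Of the reads of the pair, exons 60-64 held 76.9% in sham (297 against 89) and 86.7% in TAC (234 against 36). By library the share was 80.1, 40.0, 84.6 and 73.8% in sham, the second on 10 reads, and 85.7, 90.5 and 85.3% in TAC replicates 1, 3 and 4. Far from the hub, exons 40-41 (324 nt) had 36 reads in 7 libraries and were the only Utrn circle read in TAC replicate 2.

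Dystrophin circles summed to 23.5, 13.6, 19.04 and 27.6 in sham and 55.8, 5.77, 58.7 and 55.3 in TAC. In TAC replicates 1, 3 and 4 the sum was above every sham library and in replicate 2, with 1 read, below all of them. The log2 fold change was 0.66 ± 0.88 by limma (adjusted p = 0.9995) and 0.69 ± 0.61 by edgeR (adjusted p = 0.534). Without both shallow libraries it was 1.28 ± 0.34 by limma (adjusted p = 0.00552) and 0.85 ± 0.29 by edgeR (adjusted p = 0.0436). The most abundant circle, exons 45-47 (468 nt), had 2.65, 4.54, 1.66 and 2.53 in sham and 9.67, 0, 4.12 and 9.54 in TAC, at 1.19 ± 0.80 by edgeR (adjusted p = 0.337) and 0.06 ± 1.58 by limma (adjusted p = 0.999). These exons encode part of the central rod of spectrin-like repeats.

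Circles of Dmd did not all move together. Exons 46-47 (292 nt), which lack exon 45 and close at the same exon, had 3.79, 0, 2.48 and 4.86 in sham and 0.744, 0, 1.03 and 2.54 in TAC. Of the reads of this pair, exons 45-47 held 23 against 38 in sham, or 37.7%, and 32 against 6 in TAC, or 84.2%. In TAC replicates 1, 3 and 4 the share was 92.9, 80.0 and 78.9%, against 41.2, 40.0 and 34.2% in sham replicates 1, 3 and 4, and sham replicate 2 had 1 read. A second pair opens with exon 3 in the actin-binding end: exons 3-6 (437 nt) held 6 of 16 reads of the pair in sham and 16 of 25 in TAC against exons 3-7 (556 nt), so that here the shorter circle had the larger share in TAC. Exons 31-34 (612 nt) had 0.379, 0, 0 and 1.56 in sham and 5.205, 0, 12.4 and 4.45 in TAC. Exons 72-77 (752 nt) had 0.379, 0, 0 and 0.584 in sham and 4.46, 0, 5.15 and 5.09 in TAC. For both, 3 TAC libraries lay above all sham libraries. Exons 42-43 (368 nt) had 19 reads, all in sham replicates 1, 3 and 4. These pairs were picked after their values were seen and carry no test.

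The rest of the complex was lower. Dtna, alpha-dystrobrevin, which binds dystrophin and the syntrophins, had sums of 2.28, 4.54, 3.31 and 3.89 in sham and 8.18, 0, 8.23 and 15.3 in TAC, again with 3 TAC libraries above and 1 below the sham range. Dag1, dystroglycan, the laminin receptor of the complex, had 19 reads on 2 circles. Sgcd, delta-sarcoglycan, a transmembrane subunit of the complex, had 4 reads.

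**Figure D3:**
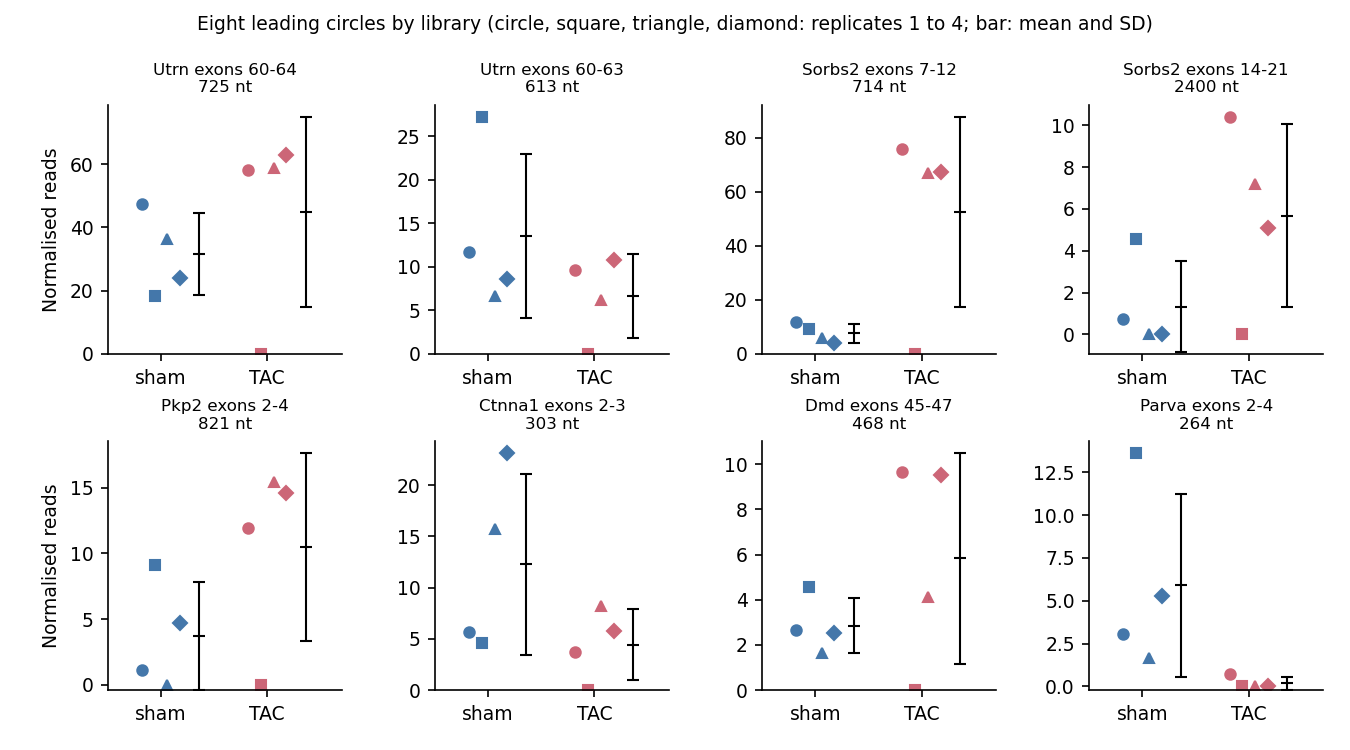
Normalised reads (vertical axis, linear, a separate scale in each panel) of 8 circles in each sham (blue) and TAC (red) library, with markers for replicates 1 to 4 and a black bar for the mean and SD of 4 libraries. TAC replicate 2 (red square) is at 0 in every panel. The other TAC points lie above all sham points for Sorbs2 exons 7-12, Sorbs2 exons 14-21, Pkp2 exons 2-4 and Utrn exons 60-64, and for Parva exons 2-4 all TAC points lie below the sham points.

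On the laminin side, Lama2 sums overlapped: 9.86, 13.6, 8.28 and 20.0 in sham and 20.8, 0, 12.4 and 15.3 in TAC. Its circles differed by library more than its sum. The most read one, exons 33-34 (242 nt), had 3, 0, 2 and 32 reads in sham and 0 in every TAC library, and exons 18-19 (299 nt) had 4, 0, 0 and 18 reads in sham and none in TAC. Both rested mainly on sham replicate 4, the deepest library, which had 996 reads of the listed hosts on 71 circles, 14.03 per circle against 1.25 to 4.28 in the other libraries. A longer circle from the same opening exon, exons 18-22 (724 nt), had 9 reads in sham and 9 in TAC.

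Among the integrins, Itga9, which pairs with integrin beta-1, had sums of 6.45, 0, 4.97 and 8.37 in sham and 8.18, 11.5, 7.21 and 5.09 in TAC, which overlapped. Its circle of exons 2-4 (359 nt) was one of 2 of the 58 tested circles whose groups did not overlap (3.11% of all tested circles did so). It had 0.758, 0, 0 and 0 in sham and 5.95, 11.5, 1.03 and 1.91 in TAC, from 2 reads in sham and 8, 2, 1 and 3 in TAC, at a limma log2 fold change of 3.67 ± 1.54 (adjusted p = 0.834). The 0 of sham replicate 2 allows a level of up to 13.6, above every TAC value. That of sham replicate 3 allows 2.48, above the 1.03 and 1.91. The absence of overlap thus holds only with a count of 0 taken as 0. A circle from the same opening exon, exons 2-5 (427 nt), had 20 reads in sham and 0 in TAC. Itgb1, the integrin beta-1 chain, had 7 reads, and Itga7, the laminin-binding integrin alpha-7 chain of muscle, had 1.

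Parva, alpha-parvin, links the integrin-linked kinase to actin, and its circle of exons 2-4 (264 nt) was the other circle without overlap, in the opposite direction. It had 3.03, 13.6, 1.66 and 5.25 in sham and 0.744, 0, 0 and 0 in TAC, from 40 reads in sham and 1 in TAC. The 0 of TAC replicate 2 allows a level of up to 17.3, above every sham value. Those of TAC replicates 3 and 4 allow 3.09 and 1.91, above the lowest sham value of 1.66. Here too the absence of overlap holds only with a count of 0 taken as 0. The limma log2 fold change was −3.998 ± 1.56 (adjusted p = 0.834). The edgeR filter dropped it in the full set, and without TAC replicate 2 edgeR called it lower (−3.87 ± 1.32, adjusted p = 0.0336). The Parva sums, 4.17, 13.6, 1.66 and 6.23 in sham and 2.23, 0, 1.03 and 1.27 in TAC, overlapped, with a limma log2 fold change of −2.43 ± 1.60 (adjusted p = 0.9995). The kinase itself (Ilk) had 1 read, its partner PINCH-1 (Lims1) 7, kindlin-2 (Fermt2), an integrin activator, 3, and zyxin (Zyx), a focal adhesion protein, 1. Talin 2 (Tln2), the talin of mature costameres, had 37 reads on 13 circles, 16 of them on exons 25-27 in sham replicate 4 alone, and talin 1 (Tln1) had 4.

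Sorbs2 held both circles called by edgeR. Its sums were 25.4, 27.3, 13.2 and 29.2 in sham and 135, 0, 106 and 115 in TAC. The 3 deeper TAC libraries thus stood well above the sham range and TAC replicate 2 had no read of the gene. By edgeR the log2 fold change of the sum was 1.60 ± 0.62 (adjusted p = 0.0900), and by limma 0.05 ± 0.91 (adjusted p = 0.9995). Without TAC replicate 2 they were 2.05 ± 0.43 (adjusted p = 0.00596) and 2.36 ± 0.39 (adjusted p = 7.5e-04).

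The circle of exons 7-12 (714 nt) held 47.3% of the host's reads. It had 11.8, 9.09, 5.80 and 3.89 in sham and 75.8, 0, 66.9 and 67.4 in TAC, a mean of 7.63 ± 3.49 against 52.5 ± 35.3 (SD, n = 4 each). It rose by edgeR's test, with a log2 fold change of 2.63 ± 0.82 (adjusted p = 0.0204), and limma gave 1.16 ± 1.25 (adjusted p = 0.903). The edgeR call was lost on leaving out sham replicate 1, 3 or 4 or TAC replicate 1, 3 or 4 (adjusted p = 0.0703 to 0.212, log2 fold change 2.27 to 3.07), and with the length trend as an offset (1.79, adjusted p = 0.0669). In libraries with at least 10 Sorbs2 reads it made up 34.5 ± 18.3% of the host in sham and 59.3 ± 3.44% in TAC (SD, n = 3 each, exact permutation p = 0.10, the smallest possible). A shorter circle from the same exon 7, exons 7-10 (424 nt), had 22 reads against 60 of exons 7-12 in sham and 7 against 273 in TAC, with 19 of the 22 in sham replicate 4.

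The second call, exons 14-21 (2400 nt), rested on 3 reads in sham and 29 in TAC. It had 0.758, 4.54, 0 and 0 in sham and 10.4, 0, 7.21 and 5.09 in TAC, a mean of 1.33 ± 2.17 against 5.68 ± 4.37 (SD, n = 4 each). The log2 fold change was 3.57 ± 1.12 by edgeR (adjusted p = 0.0209) and 2.22 ± 1.59 by limma (adjusted p = 0.834). The edgeR call was lost without sham replicate 3 or 4 or TAC replicate 3 or 4 (adjusted p = 0.0640 to 0.171), the filter dropped the circle without TAC replicate 1, and the length offset gave 1.87 (adjusted p = 0.269).

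Sorbs2 also held 15 of the 21 intronic circles, and 14 of them shared 1 start at chr8:45745842, the first base of an annotated 713-nt intron (45745842 to 45746554). Of their ends 11, with 158 of 161 reads, fell 39 to 50 nt before the end of that intron. The 14 circles summed to 5.69, 9.09, 4.14 and 14.98 in sham and 15.6, 0, 10.3 and 19.7 in TAC, a mean of 8.47 ± 4.80 against 11.4 ± 8.53 (SD, n = 4 each). These overlapped, unlike the exon 7-12 circle in the same deeper libraries. The antisense gene Sorbs2os covers this region. No source used here gives the libraries' strand, so strand cannot tell reads of the 2 genes apart. The start and ends given above are positions in the annotated Sorbs2 intron. Palld, palladin, an actin cross-linker of Z-discs and focal adhesions, had sums of 2.28, 4.54, 0 and 2.33 in sham and 10.4, 0, 8.23 and 5.09 in TAC, with 3 TAC libraries above the sham range and 1 at 0.

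**Figure D4:**
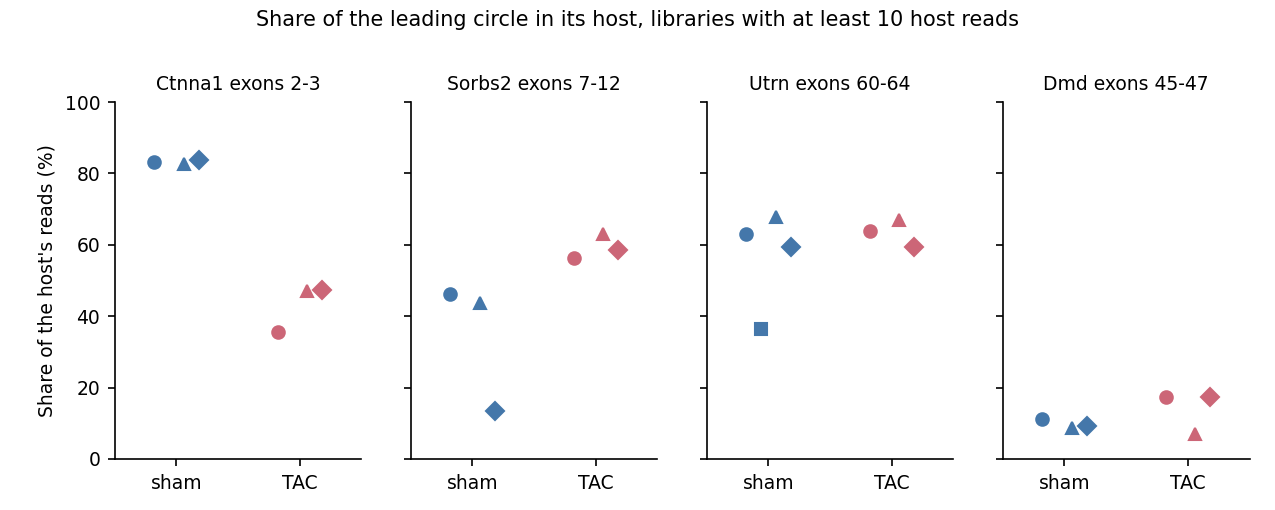
Share of the host's reads (vertical axis, percent) held by the leading circle of Ctnna1, Sorbs2, Utrn and Dmd in each sham (blue) and TAC (red) library with at least 10 reads of the host, with markers for replicates 1 to 4. The Ctnna1 circle lies at 82.6 to 83.8% in sham and at 35.7 to 47.4% in TAC, while the Utrn and Dmd points of the groups overlap.

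The fold changes went with circle length, in these genes as in the table. Across the 52 tested circles with a length, Spearman's rho of limma's fold change on spliced length was 0.51, and across all 3694 it was 0.43, as a description, since these circles share libraries and hosts. All 4 listed circles under 300 nt had negative fold changes (median −1.30, against −0.83 for all circles of that length). Of the 21 circles of 600 nt or more, 17 were positive (median 1.39, against 1.02). The median read of the listed hosts lay in a circle of 599, 613, 556 and 437 nt in sham and of 714, 351, 714 and 714 nt in TAC, where 714 nt is the length of the Sorbs2 circle of exons 7-12 itself. Over all circles these medians were 394, 491, 368 and 353 nt in sham and 542, 334, 519 and 498 nt in TAC, so that the 3 deeper TAC libraries lay above the sham range there too. With an offset for each library's length trend edgeR called none of the 7 circles, given here without its share over all circles. With that trend removed limma called none of 52. It had called none with the trend left in, so its count cannot show a part of length. The part of length in the differences of the single circles above was not tested further.

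**Figure D5:**
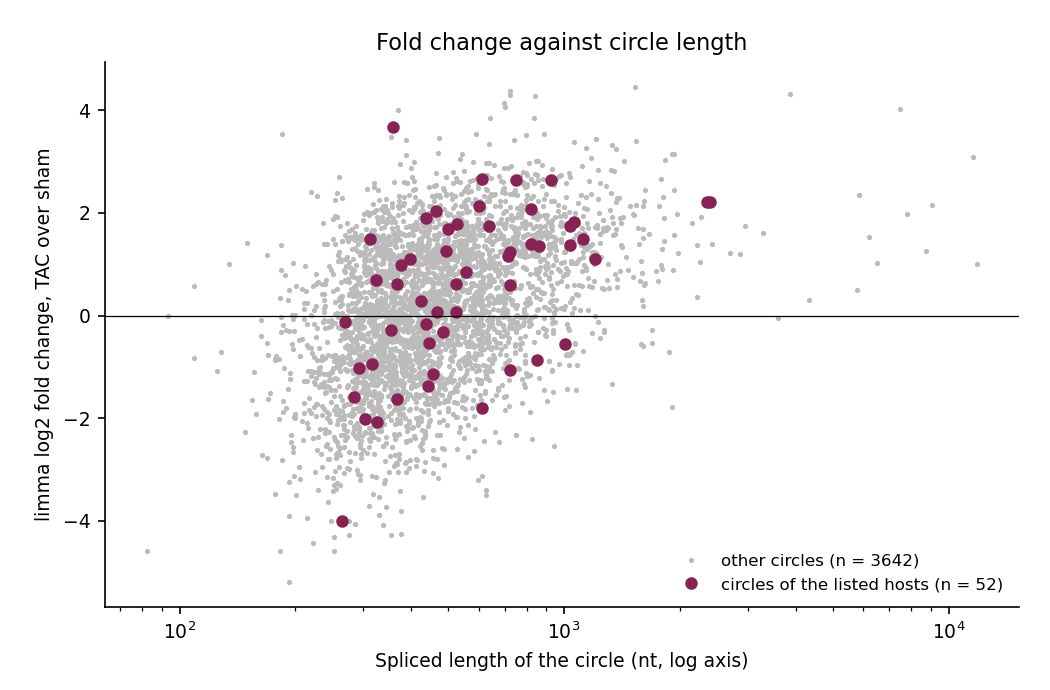
limma log2 fold change of TAC over sham (vertical axis) against spliced length in nt (horizontal log axis) for the 52 tested circles of the listed hosts (purple) over the 3642 other tested circles (grey). The purple points rise from left to right as the grey ones do: all 4 under 300 nt are negative and 17 of the 21 at 600 nt or more are positive.

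A wider list of 52 other disc and costamere genes, none of them in the list above, had circles for 45. limma called none of its 30 tested hosts and none of its 55 tested circles. At an unadjusted p under 0.05 were 2 of the circles and 0 of the hosts. Over all features 152 of 3735 circles and 90 of 2967 hosts passed that level. edgeR called 2 of 14 hosts, both higher, against 3.33% of all hosts called higher. These were Dst, dystonin, a linker of the cytoskeleton, and Svil, supervillin, an actin-binding costamere protein. Dst had a mean of 1.08 ± 1.07 in sham and 7.69 ± 4.30 in TAC, and Svil 5.88 ± 5.201 and 17.02 ± 11.7 (SD, n = 4 each). The edgeR log2 fold change was 2.199 ± 0.76 for Dst (SE, adjusted p = 0.0489) and 1.91 ± 0.65 for Svil (SE, adjusted p = 0.0450).

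Circles of cell type markers were measured beside these values. Of 9 cardiomyocyte markers 8 had circles (Pln had none), summing to 344, 809, 190.4 and 246 in sham and 1688, 277, 1246 and 1131 in TAC, so that the 3 deeper TAC libraries lay above every sham library and TAC replicate 2 within the sham range. Of 9 fibroblast markers 5 had circles (Lum, Tcf21, Postn and Fn1 had none), summing to 1.66 to 4.54 and 0 to 1.49. All 8 endothelial markers had circles, with 11.8, 40.9, 14.9 and 13.8 in sham and 32.0, 0, 39.1 and 51.5 in TAC. The highest sham value rested on 9 reads of sham replicate 2. TAC replicates 1, 3 and 4 lay above every sham library but that one. Smooth muscle and pericyte markers had circles for 4 of 7 (none for Acta2, Tagln and Rgs5), with 8.28 to 22.7 and 12.4 to 28.9, and leukocyte markers for 5 of 7 (none for Csf1r and Cd163), with 14.4 to 27.3 and 11.5 to 39.4. As with the shares, the part of cell composition in the results for single circles and hosts was not tested, and linear RNA of the hosts was not analysed here.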

How the data were processed

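Back-spliced reads of circles were measured in 8 heart libraries, 4 sham and 4 TAC, each from a separate mouse per the labels' protocols. The deposited unit is a signal, namely reads of each circle over a size factor of its library. This follows from the values, since 100% of them were whole multiples of the smallest value of their library within 0.001. The size factors equalled those of DESeq2, and whole reads were recovered. The labels' protocols name a kit for circular RNA, and the submitters' processing notes name mm10, HISAT2, StringTie and DESeq2 without versions. No source used here gives the circRNA caller, the read length or the strand. No column lacked a sample.

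The main test was limma 3.58.1 (intensity trend) on log2(value + 0.195), 0.195 being the smallest value above 0, for features above 0 in at least 4 libraries. Its fold changes are on that scale, which shrinks differences between low levels, and its SE follows the trend over all features. A count of 0 enters at the same value in every library. Yet 1 read weighs 0.195 in sham replicate 4 and 5.77 in TAC replicate 2, so a 0 of a shallow library enters far below 1 of its reads. edgeR 4.0.16 (TMM, robust, minimum count 5, minimum total 15) was run on the recovered reads and DESeq2 1.42.0 as an alternative, in R 4.3.3. Benjamini-Hochberg adjustment ran over the whole table at 0.05. Shares were compared by exact permutation tests in scipy 1.17.1. Host sums add all circles of a gene. Exons and spliced lengths come from GENCODE M21 transcripts of the listed isoform. The length trend was a loess of span 0.5 per library. Scripts were tested on simulated data.

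The rule for named circles takes the one with the largest mean value in each tested host and every called one. Others were named after their values were seen. Lama2 exons 5-7 (6 reads) and Tln2 exons 46-47 (1 read) fall under this rule but are not described above. The same holds for the leading circles of Dtna, Palld, Vcl, Dag1, Pkp4 and Itgb1. The listed genes and the wider list were chosen with earlier results of these data known. Some results of the wider list and of a marker list are not reported here.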

Additional observations from a re-analysis of the deposited data

Results flagged for a closer look

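In 42 groups of 4 libraries (the named circles and host sums), 4 held a library that stood far from the other 3 by Dixon's test. Chance alone flags about 1 in 20 groups where the values are independent, normal and equally precise. These groups share libraries of unequal depth, so that rate cannot be applied to them. TAC replicate 2 was the low one in 3 of them. Sorbs2 exons 7-12 had 0 normalised reads there against 66.9 to 75.8 in the other TAC libraries. The Dmd sum was 5.77 against 55.3 to 58.7, and the Pkp2 sum was 0 against 19.3 to 22.9. In the fourth, Sorbs2 exons 14-21 had 4.54 normalised reads in sham replicate 2, which is 1 read, against 0 to 0.758 in the other sham libraries. Both libraries held under 5000 reads.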

How the results depend on the processing

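The number of circles called by edgeR, 2 in the full set, ran from 0 to 6 on leaving out 1 library: 0 without sham replicate 3 or 4 or TAC replicate 1, 3 or 4, 1 without sham replicate 1, 4 without sham replicate 2 and 6 without TAC replicate 2. It was 5 without both shallow libraries (sham replicate 2 and TAC replicate 2, each under 5000 reads), 0 without a filter, 1 at a minimum count of 10 and 0 with the length trend as an offset. For hosts by edgeR it was 0 in the full set and 0 to 3 on leaving out 1 library. It was 4 without both shallow libraries and 1 each with RLE size factors, library totals or a minimum count of 10. For limma it was 0 in the full set, 0 to 1 on leaving out 1 library for circles and for hosts (1 without TAC replicate 2), 5 circles and 6 hosts without both shallow libraries, and 1 circle and 1 host with DESeq2. On leaving out 1 library, edgeR tested 7 to 13 circles and 11 to 15 hosts of the list. Without sham replicate 2 it called 145 of all 1134 circles higher and 103 lower, and 104 of all 1381 hosts higher and 126 lower. The shares over all features in the full set, without TAC replicate 2 and without both shallow libraries stand with the calls above. None are given for the remaining settings. No share of a leading circle passed with 5 in place of 10 reads.

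Signs reversed in 25 of 358 values, and the cause was not tested. For Utrn exons 60-64, limma's −1.05 became 0.55 with DESeq2 and 0.78 without both shallow libraries and ran from −1.77 to 1.01 on leaving out 1 library, and edgeR's 0.27 became −0.63 with the length offset. For the Utrn sum, limma's −0.18 became 0.18 with DESeq2 and 0.78 without both shallow libraries and ran from −0.57 to 0.82, and edgeR's 0.05 ran from −0.078 to 0.46. For Dmd exons 45-47, limma's 0.06 became −0.34 with the length trend removed and ran from −0.51 to 1.38. For the Sorbs2 sum, limma's 0.05 became −0.075 with TMM and −0.30 without its leading circle and ran from −0.78 to 2.36, and for the Pkp2 sum 0.40 ran from −0.22 to 2.08. In each of these 5 limma ranges the highest value came without TAC replicate 2. The Parva sum, −2.43, became 0.83 without its leading circle. Among the other named circles and hosts 38 of 382 values reversed.

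No paired analysis was possible because the replicate numbers follow accession order and pair no sham mouse with a TAC mouse.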
